A study of Mus musculus with 12 samples.

Results

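The genes described here build and maintain the primary cilium. They were taken by symbol from the deposited table: the genes named *Ift*, *Bbs* and *Nphp* with a number, *Tctn1* to *Tctn3*, *Dync2* genes, *Kif3a*, *Kif3b*, *Kif3c* and *Kifap3*, and 16 further named genes such as *Arl3*, *Cep164*, *Inpp5e* and *Mks1*. This rule found 50 of the 35275 genes in the table. The primary cilium is a single, non-motile projection of the cell surface, and in the kidney it stands on the tubular epithelial cells and holds the polycystins. It is built by intraflagellar transport (IFT), in which IFT-B and IFT-A particles are carried to the tip by kinesin-2 and back by dynein-2, while the BBSome moves membrane proteins and the transition zone at the base acts as a gate. Inherited defects in many of these genes cause cystic kidney disease.

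Poly(A) RNA was sequenced from kidneys of 12 C57BL/6J mice at 6 months of age, 4 in each of 3 groups, each with 2 females and 2 males. The groups were wild type (WT), RC/RC mice, which are homozygous for a hypomorphic missense knock-in allele of *Pkd1*, and RC/RC:*Casp1*KO mice, which are also homozygous for a deletion in *Casp1*. The deletion was made with TALENs, was not limited to a cell type, and the count columns of these mice all carry the prefix Del3. No group carried the *Casp1* deletion without the RC allele, and both cystic groups shared the RC allele. The columns name the group and a mouse number but not the sex, so mice are called here by their column names, and no value is given by sex. Each library held 18019819 to 24869454 counted reads.

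*Casp1*, the deleted gene, was measured first. Its level, in FPKM (reads scaled to gene length and to a library size corrected by TMM factors), was 1.37, 0.86, 0.87 and 0.94 in the WT mice B6_2, B6_3, B6_4 and B6_6. The RC/RC mice RC105, RC139, RC140 and RC143 had 2.22, 2.58, 2.83 and 1.75, and the RC/RC:*Casp1*KO mice Del3_60, Del3_105, Del3_42 and Del3_70 had 0.26, 0.45, 0.44 and 0.71. All RC/RC:*Casp1*KO mice therefore lay below all WT mice and all RC/RC mice. *Casp1* was lower in RC/RC:*Casp1*KO than in RC/RC by a log2 fold change of -2.35 (SE 0.32, adjusted p = 0.00514, quasi-likelihood test of edgeR, with p-values adjusted over all genes tested by the Benjamini-Hochberg method). Against WT it was -1.12 (adjusted p = 0.128, same test), which did not reach an adjusted p under 0.05. The labelled tissue was also checked: of 8 proximal tubule markers, all were present, and *Slc34a1*, the sodium-phosphate cotransporter of that segment, was the most abundant of them.

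Libraries also differed in how expression related to gene length. The slope of log2 expression on log2 gene length, which is 0 for a library at the mean of all 12, was -0.12 in RC139 and -0.14 in RC140. It lay between -0.03 and 0.07 in the other 10 mice. RC139 and RC140 also had the highest share of reads on mitochondrial genes, 12.1% and 11.6%, against 7.78% to 10.6% in the others. The source of these differences was not tested. For the genes taken by the rule, results that rest on these mice are given below with and without them. For other cilium genes, calls are counted with and without them.

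All 50 cilium genes had enough reads to be tested in all 3 comparisons, and the lowest count of any of them in any mouse was 43. Their mean levels over 12 mice ran from 0.609 to 57.4 FPKM with a median of 5.63, close to the median of 5.81 FPKM over all genes that passed the filter. *Arl3*, a small GTPase that releases lipidated cargo inside the cilium, was the most abundant (62.4 ± 10.8 FPKM in WT, SD, n = 4). *Ift20*, the IFT-B subunit that is also found at the Golgi, followed at 35.9 ± 2.92 FPKM in WT, and *Dync2li1*, the light intermediate chain of dynein-2, at 23.0 ± 4.13 FPKM. The least abundant was *Nphp4*, which encodes a transition zone scaffold, at 0.574 ± 0.110 FPKM in WT. *Bbs10*, a chaperonin-like protein needed to assemble the BBSome, and *Cep290*, a transition zone protein, were at 1.22 ± 0.165 and 1.48 ± 0.340 FPKM in WT. In total the 50 genes took 0.0971% to 0.104% of the reads in WT, 0.0911% to 0.113% in RC/RC and 0.102% to 0.115% in RC/RC:*Casp1*KO, so the 3 groups overlapped. The kidney is a mixture of cells, and fewer cells of a type cannot be told apart here from less RNA per cell.

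**Figure D1:**
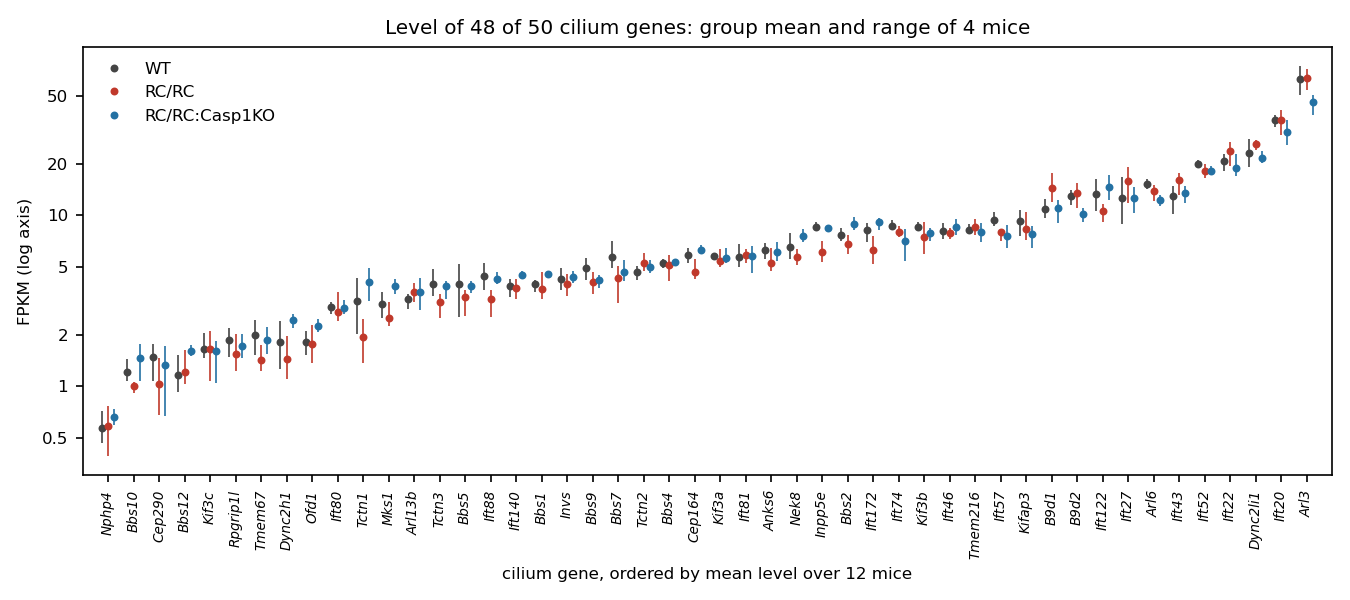
Level of 48 of the 50 cilium genes in FPKM (log axis), with genes ordered by their mean over 12 mice. Points are group means and vertical lines run from the lowest to the highest of 4 mice in WT, RC/RC and RC/RC:Casp1KO; levels run from Nphp4 at the left to Arl3 at the right, and for most genes the ranges of the groups overlap.

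The first comparison asked how cilium genes differed between cystic RC/RC kidneys and WT kidneys. *Inpp5e*, which encodes the phosphoinositide phosphatase of the ciliary membrane, was the single member called lower, and no member was called higher. Over all 15243 genes tested, 3.18% were called lower and 9.76% higher, so 1 of 50 members called lower (2%) was no more than the background. At an unadjusted p under 0.05, 6 members were lower (12% of them, as of all genes tested) and 1 was higher (beside 17.3% of all genes). The log2 fold change was positive for 14 of 50 members (28.0%, beside 47.8% of all genes tested), with a median of -0.13 beside -0.02 for all genes. The median of the members was thus 0.11 below that of all genes. Without RC139 and RC140 it was -0.072 beside -0.027 for all genes, with 17 of 50 members positive beside 46.0% of all genes. Groups did not overlap for 3 members that were lower in RC/RC (*Inpp5e*, *Bbs10* and *Ift57*), 6% beside 7.01% of all genes, and for no member that was higher, beside 12.5% of all genes.

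The level of *Inpp5e* was 8.35, 8.29, 8.25 and 9.20 FPKM in the 4 WT mice and 7.10, 5.57, 5.35 and 6.51 FPKM in RC105, RC139, RC140 and RC143. Every RC/RC mouse was below every WT mouse, and RC139 and RC140 were the lowest. The log2 fold change was -0.47 (SE 0.12, adjusted p = 0.0266, edgeR's quasi-likelihood test). The call was lost when B6_2, B6_3, B6_6, RC139 or RC140 was left out, with adjusted p-values of 0.0502, 0.0541, 0.0834, 0.0554 and 0.0729, although the fold change stayed between -0.57 and -0.41 in all 8 such fits. Without both RC139 and RC140 it was -0.32 (adjusted p = 0.192), in a fit that called 0.391% of all genes lower and 2.71% higher. *Tctn1*, a transition zone gene, had the most negative fold change of all members, -0.69 (SE 0.32, adjusted p = 0.183), and missed the threshold. The most positive were *B9d1*, a transition zone gene, at 0.39 (SE 0.16, adjusted p = 0.149) and *Ift27*, the small GTPase of IFT-B, at 0.34 (SE 0.22, adjusted p = 0.329).

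The second comparison asked what the loss of *Casp1* changed in RC/RC kidneys. Here 8 members were higher in RC/RC:*Casp1*KO than in RC/RC and none was lower, 16% of the members beside 7.23% of the 15428 genes tested that were called higher and 4.41% called lower. They came from 6 of the 9 role groups, and 7 of them are described here: *Ift172* from IFT-B, *Dync2h1* from dynein-2, *Mks1* and *Tctn1* from the transition zone, *Nek8* from the inversin compartment, *Inpp5e*, and *Cep164* from the distal appendages. At an unadjusted p under 0.05, 14 members were higher and 4 were lower (28% and 8%, beside 15.3% and 16.4% of all genes). DESeq2 called 10 higher and 1 lower, beside 7.37% and 5.91% of the genes it tested. The median log2 fold change of the 50 members was 0.11, beside -0.03 for all genes, and 32 of 50 were positive (64%, beside 47.5% of all genes). For 13 members (26%) all RC/RC:*Casp1*KO mice were above all RC/RC mice, beside 11.6% of all genes. For 2 members (4%), *Arl3* and *Dync2li1*, they were all below, beside 8.81%. This comparison shares its RC/RC mice with the first, so a gene that was low in those mice lies below WT in the former and below RC/RC:*Casp1*KO in the latter from the same values.

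**Figure D2:**
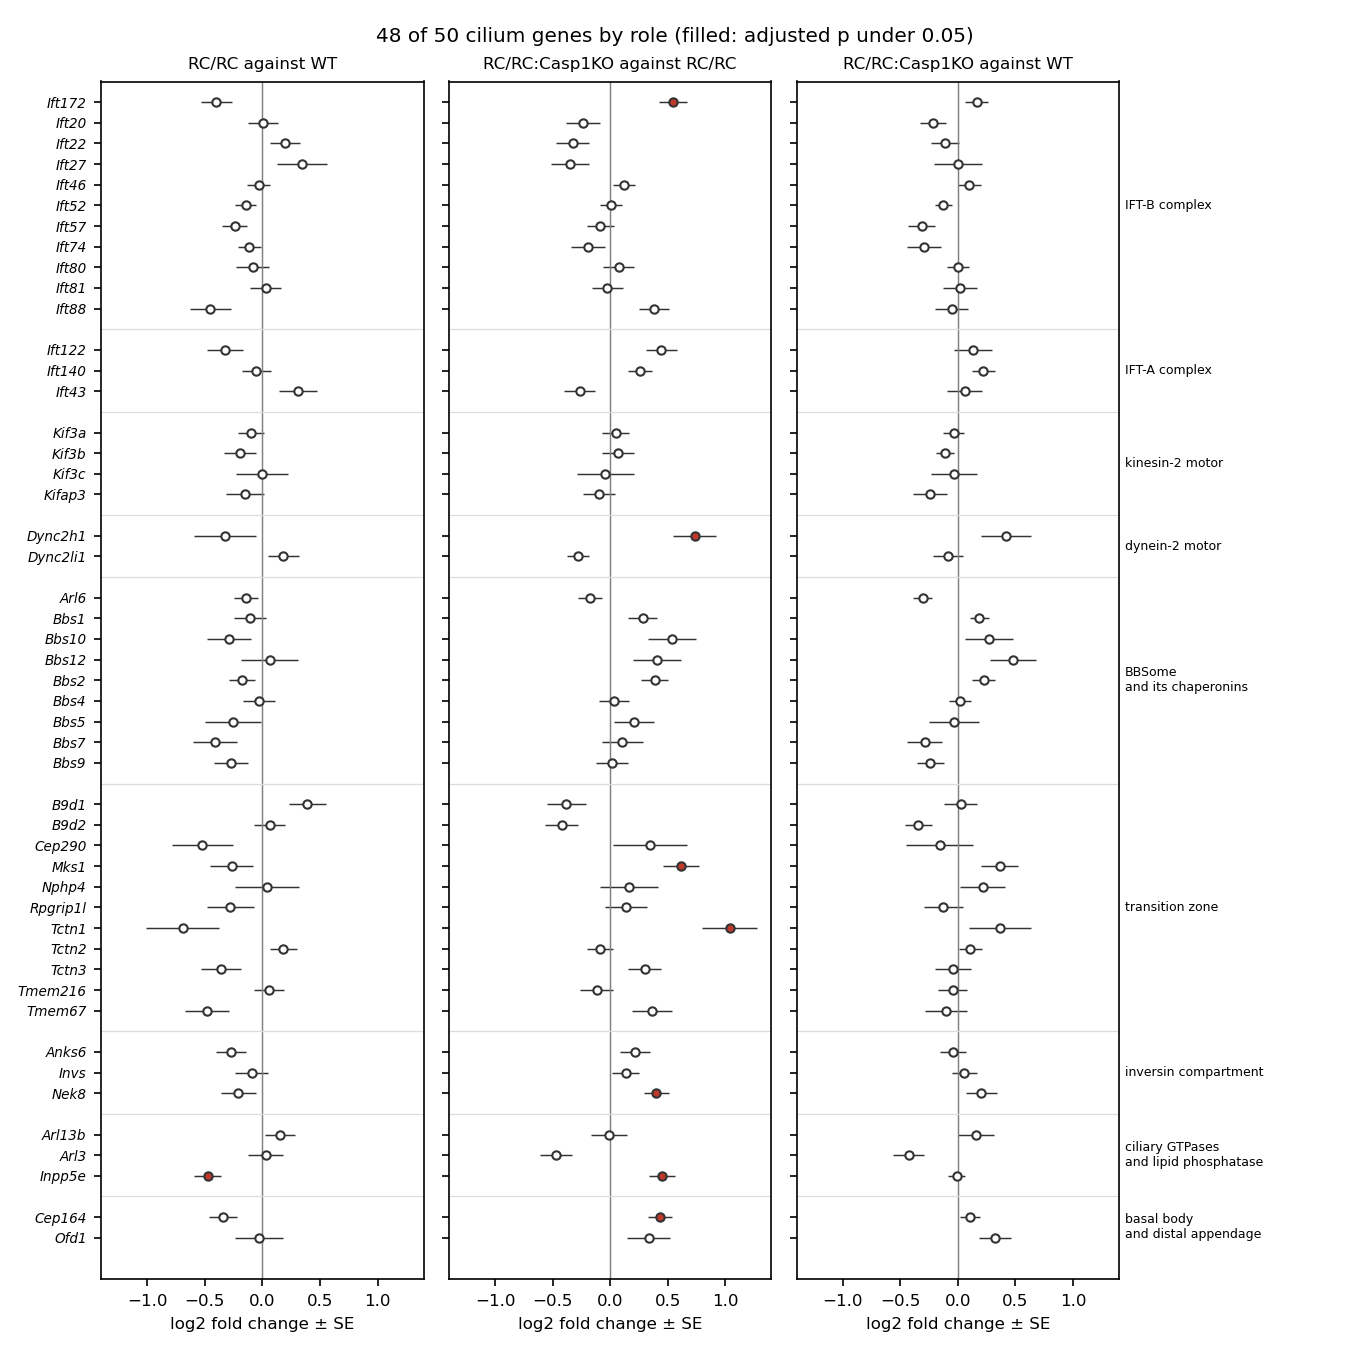
The log2 fold change (x axis) of 48 of the 50 cilium genes (y axis, grouped by role) in the 3 comparisons, with bars of 1 standard error and filled points for an adjusted p under 0.05. There is 1 filled point against WT in RC/RC (Inpp5e), 7 to the right of 0 for RC/RC:Casp1KO against RC/RC, and none for RC/RC:Casp1KO against WT.

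In the IFT-B complex, which carries cargo toward the tip, *Ift172* was the single one of 11 members called. This gene, which encodes the largest subunit of the particle, lies on the minus strand at chr5:31253280-31291114 (mm10, as for all gene positions here). Its levels were 6.95, 8.36, 8.98 and 8.68 FPKM in WT, 7.59, 5.85, 5.21 and 6.34 FPKM in RC/RC, and 9.66, 9.69, 8.20 and 9.24 FPKM in RC/RC:*Casp1*KO. No mouse without *Casp1* fell to the level of the highest RC/RC mouse, while WT and RC/RC mice overlapped. The log2 fold change from RC/RC to RC/RC:*Casp1*KO was 0.55 (SE 0.12, adjusted p = 0.0267, same test). It was not called without RC139, RC140, Del3_60 or Del3_105 (adjusted p = 0.0677, 0.0723, 0.0714 and 0.0812). *Ift88*, the subunit lost in a classic mouse model of cystic kidneys, had 0.38 (SE 0.13, adjusted p = 0.0887) with groups that did not overlap. The other IFT-B genes lay on either side of 0, from *Ift27* at -0.35 to *Ift46* at 0.12, and the median of the complex was -0.03.

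The motors and the IFT-A complex gave 1 call by edgeR's test; dynein-2 and IFT-A return the particles to the cell body, and kinesin-2 drives the outward trip. *Dync2h1*, the heavy chain of dynein-2, lies on the minus strand at chr9:6928503-7184446. It had 1.32, 1.27, 2.42 and 2.28 FPKM in WT, 1.96, 1.13, 1.10 and 1.60 FPKM in RC/RC, and 2.20, 2.54, 2.32 and 2.67 FPKM in RC/RC:*Casp1*KO. The RC/RC:*Casp1*KO mice were all above the RC/RC mice, and the WT mice fell into a low and a high pair. The difference from RC/RC was 0.73 on the log2 scale (SE 0.18, adjusted p = 0.0367, same test), and it was called in 2 of the 8 fits that left out 1 mouse (without RC105 and without RC143, adjusted p = 0.0148 and 0.0396; 0.0686 to 0.0961 in the others). *Dync2li1* of the same motor went the other way, at -0.28 (SE 0.10, adjusted p = 0.0853). In IFT-A, *Ift122* and *Ift140* had 0.44 (SE 0.13, adjusted p = 0.0602) and 0.26 (SE 0.10, adjusted p = 0.122), both with groups that did not overlap, *Ift122* was called higher by DESeq2, and *Ift43* had -0.26 (SE 0.14, adjusted p = 0.215). None of the 4 kinesin-2 genes was called by edgeR's test or by DESeq2, and at an unadjusted p under 0.05 the count was also 0. *Kif3a*, *Kif3b*, *Kif3c* and *Kifap3* had 0.05, 0.07, -0.04 and -0.10.

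At the transition zone, the gate between the cilium and the cell, 2 of 12 members were called. *Tctn1*, which encodes the membrane-associated tectonic-1, lies on the minus strand at chr5:122241287-122264460 and had the largest fold change of all 50 members. Its levels were 2.22, 2.01, 4.11 and 4.32 FPKM in WT, 2.48, 1.50, 1.37 and 2.47 FPKM in RC/RC, and 4.04, 4.12, 3.16 and 4.95 FPKM in RC/RC:*Casp1*KO. The RC/RC:*Casp1*KO mice stood above every RC/RC mouse and above B6_2 and B6_3, but not clearly apart from B6_4 and B6_6. *Tctn1* rose from RC/RC by 1.04 on the log2 scale (SE 0.24, adjusted p = 0.0284, same test), and the call was lost without RC139, RC140, Del3_60, Del3_105 or Del3_70 (adjusted p = 0.0644, 0.0740, 0.0687, 0.0763 and 0.0553).

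*Mks1*, which encodes a B9-domain protein mutated in Meckel syndrome, lies on the plus strand at chr11:87853215-87863803. It had 2.59, 2.51, 3.58 and 3.45 FPKM in WT, 3.11, 2.27, 2.45 and 2.26 FPKM in RC/RC, and 3.62, 4.25, 3.48 and 4.20 FPKM in RC/RC:*Casp1*KO. The cystic groups did not overlap. *Mks1* rose by 0.62 on the log2 scale (SE 0.15, adjusted p = 0.0364, same test) and was called in 1 of 8 fits with 1 mouse left out, that without RC105 (adjusted p = 0.0216; 0.0586 to 0.106 in the others). *B9d2*, whose product works in the same complex as that of *Mks1*, had -0.42 (SE 0.14, adjusted p = 0.0760), and *B9d1* had -0.38 (SE 0.17, adjusted p = 0.153). *Cep290*, *Tmem67*, *Tctn3*, *Nphp4* and *Rpgrip1l* ranged from 0.14 to 0.36 and were not called, and *Tctn2* and *Tmem216* had -0.09 and -0.12.

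In the inversin compartment, the segment just above the transition zone, *Nek8* was called. *Nek8*, a kinase whose mutation causes juvenile cystic kidneys in mice, lies on the minus strand at chr11:78166106-78176675. It had 5.57, 5.55, 7.29 and 7.85 FPKM in WT, 6.38, 5.13, 5.94 and 5.27 FPKM in RC/RC, and 7.02, 8.29, 7.10 and 7.78 FPKM in RC/RC:*Casp1*KO. The lowest of the latter was above RC105, the highest RC/RC mouse. *Nek8* rose by 0.40 on the log2 scale (SE 0.11, adjusted p = 0.0444, same test), and it was called in 1 of 8 fits with 1 mouse left out, that without RC105 (adjusted p = 0.0334; 0.0735 to 0.131 in the others). *Anks6* and *Invs*, whose products bind the *Nek8* kinase and anchor the compartment, had 0.22 (SE 0.13, adjusted p = 0.288) and 0.13 (SE 0.12, adjusted p = 0.480).

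The ciliary membrane and the basal body gave the remaining calls. *Inpp5e*, on the minus strand at chr2:26396249-26409203, had 8.70, 8.75, 7.95 and 8.31 FPKM in RC/RC:*Casp1*KO, against 5.35 to 7.10 FPKM in RC/RC as given above. All 4 values lay within or close to the WT range of 8.25 to 9.20 FPKM. *Inpp5e* rose from RC/RC by 0.45 on the log2 scale (SE 0.11, adjusted p = 0.0355, same test), and the call held without RC105 or RC143 (adjusted p = 0.0235 and 0.0360) but not without any of the other 6 mice (0.0596 to 0.100). *Arl3* had the lowest fold change of all members, -0.47 (SE 0.14, adjusted p = 0.0543), with levels of 53.9, 71.6, 72.0 and 57.1 FPKM in RC/RC and 50.6, 48.3, 47.6 and 38.4 FPKM in RC/RC:*Casp1*KO. These groups did not overlap, and *Arl3* was called lower by DESeq2 and without RC105. *Arl13b*, the GTPase that activates *Arl3*, had -0.01 (SE 0.16, adjusted p = 0.972).

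*Cep164*, which docks the basal body to the membrane, lies on the minus strand at chr9:45766946-45828691. Its levels were 5.27, 5.83, 6.04 and 6.44 FPKM in WT, 5.57, 4.49, 4.27 and 4.25 FPKM in RC/RC, and 5.91, 6.44, 6.16 and 6.74 FPKM in RC/RC:*Casp1*KO. RC105 was within the WT range, and the other RC/RC mice were below all mice of both other groups. On the log2 scale *Cep164* rose from RC/RC by 0.43 (SE 0.11, adjusted p = 0.0341, same test). It was called in 1 of 8 fits with 1 mouse left out, that without RC105 (adjusted p = 0.0142; 0.0563 to 0.0973 in the others). *Ofd1*, a centriolar satellite and basal body gene, had 0.34 (SE 0.19, adjusted p = 0.247).

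None of the 9 genes of the BBSome group was called by edgeR's test, although 8 of 9 were positive with a median of 0.21, and at an unadjusted p under 0.05 the count was 3. *Bbs2*, a core subunit, had 0.39 (SE 0.12, adjusted p = 0.0584) and *Bbs10* had 0.54 (SE 0.21, adjusted p = 0.115), both with groups that did not overlap. DESeq2 and the fit of all 12 mice called *Bbs2* higher, and without RC105 edgeR's test called both *Bbs2* and *Bbs1*. *Bbs12*, another chaperonin-like gene, had 0.40 (SE 0.21, adjusted p = 0.215). *Arl6*, the GTPase that recruits the BBSome to membranes, was the exception at -0.18 (SE 0.10, adjusted p = 0.269).

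**Figure D3:**
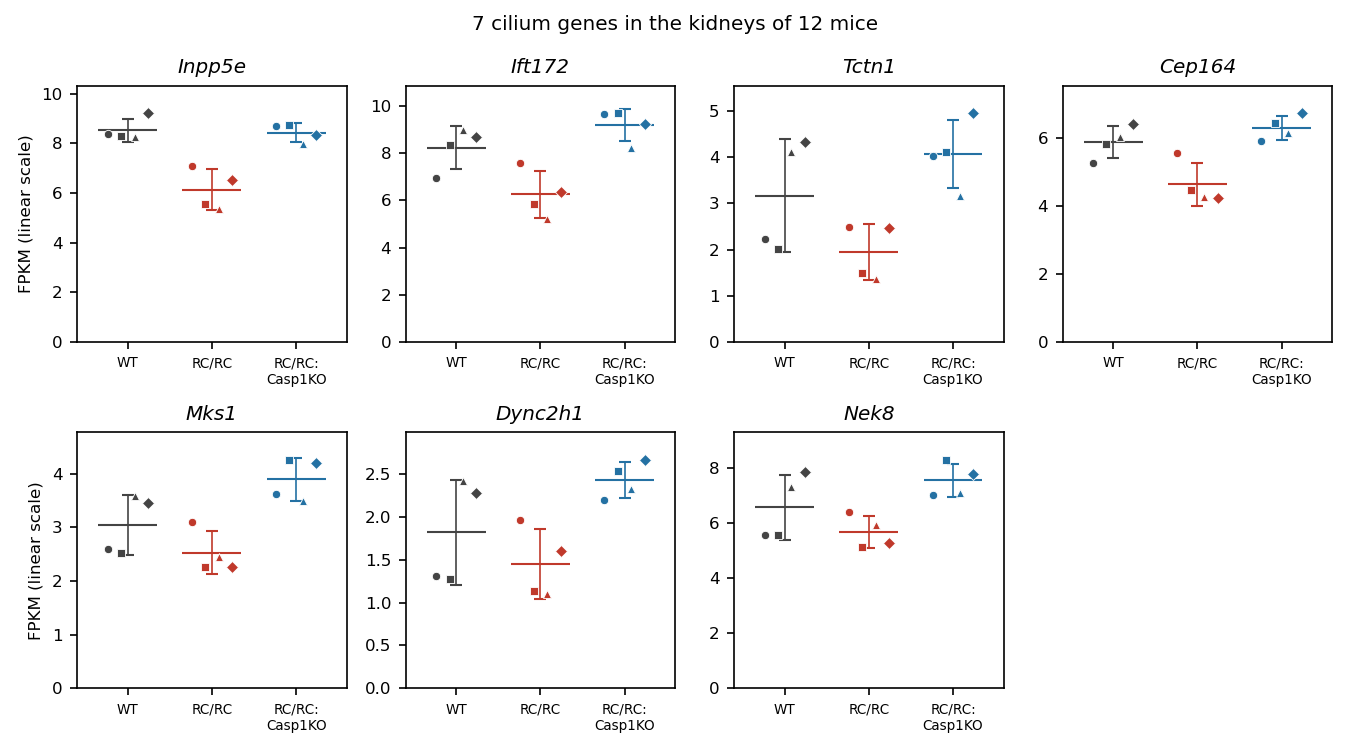
FPKM (y axis, linear from 0) of 7 of the 8 cilium genes called in at least 1 comparison, in WT, RC/RC and RC/RC:Casp1KO kidneys. Each point is 1 mouse, horizontal lines are means and bars are 1 SD (n = 4); within a group the circle, square, triangle and diamond stand for B6_2, B6_3, B6_4 and B6_6, for RC105, RC139, RC140 and RC143, and for Del3_60, Del3_105, Del3_42 and Del3_70. The RC/RC:Casp1KO points lie above all RC/RC points in each panel, and WT points of several genes form a low and a high pair.

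Several mice held the same place within their group for most of the 8 called genes. RC105 was the highest RC/RC mouse for 7 of the 8, and RC139 and RC140 were the lowest pair for 5. Among WT mice, B6_2 and B6_3 were the lowest pair for 7 of the 8. Over all 50 members, B6_2 and B6_3 were the lowest WT pair for 21 and RC139 and RC140 the lowest RC/RC pair for 18. The WT split went with the length slope, which was -0.01 and 0.01 in B6_2 and B6_3 and 0.06 in both B6_4 and B6_6. The whole WT libraries paired in the same way: the chi-square per degree of freedom between mice was 17.7 for B6_2 and B6_3 and 16.4 for B6_4 and B6_6, against 89.8 to 127 across these pairs. The RC/RC:*Casp1*KO libraries also paired, Del3_60 with Del3_105 (15.7) and Del3_42 with Del3_70 (31.8), against 67.1 to 93.4 across these pairs. The 8 genes did not follow that pairing: Del3_42 and Del3_60 were most often among the lower pair, 7 and 6 times. The closest RC/RC libraries were RC140 and RC143 (37.2, against 67.6 for RC139 and RC140). Each group held 2 females and 2 males. The columns do not give the sex, and whether these splits followed sex was not tested. Of the 8 proximal tubule markers, 5 had B6_2 and B6_3 as the lowest WT pair. *Lrp2*, an endocytic receptor, had 99.1 and 105.4 FPKM in B6_2 and B6_3 and 186 and 202 FPKM in B6_4 and B6_6, whereas the water channel gene *Aqp1*, with the reverse order, had 327 and 413 FPKM in the former and 302 and 290 FPKM in the latter.

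The 8 calls were sensitive to single mice of both cystic groups. With RC139 alone or Del3_60 alone left out, 1 member (2%) was called higher and none lower, beside 3.93% and 3.37% of all genes called higher and 0.864% and 0.505% called lower. When RC139 and RC140 were both left out, a choice made after seeing the data, no member was called in either direction by edgeR's test, and 9 were higher and 1 lower at an unadjusted p under 0.05. In that fit 2472 of 16277 genes were under an unadjusted p of 0.05 in either direction, 0.313% were called higher and 0.0246% lower. *Casp1* itself was at -2.10 there with an adjusted p of 0.0831. The 8 genes kept a positive fold change, from 0.31 for *Inpp5e* (adjusted p = 0.224) to 0.72 for *Tctn1* (adjusted p = 0.158), while the median of the 50 members fell to 0.01, beside -0.01 for all genes. Without RC140 alone or Del3_105 alone, none of the 50 was called (12 higher and 3 lower, and 13 higher and 3 lower, at an unadjusted p under 0.05). Over all genes, 3796 of 15825 and 3823 of 15713 were under that unadjusted p in either direction. Calls over all genes fell too, to 2.36% and 2.43% higher and 0.411% and 0.369% lower. Without RC105, 10 members were called higher and 2, *B9d2* and *Arl3*, lower (20% and 4%), beside 9.5% and 8.3% of all genes. With library size alone as the scaling, 2 members (4%) were called higher and none lower, beside 5.28% and 1.16% of all genes, so the share of members called was then no more than the background.

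The third comparison asked whether kidneys with the RC allele but no *Casp1* differed from WT kidneys. No member was called by edgeR's quasi-likelihood test, beside 1.13% of the 15346 genes tested called higher and 0.893% called lower. At an unadjusted p under 0.05, 3 members were higher and 4 lower (beside 11.8% and 9.99% of all genes). DESeq2 called none higher and 1 lower, *Arl6*, beside 3.35% and 2.5% of the genes it tested. The median log2 fold change was -0.01, beside 0.01 for all genes, and 25 of 50 members were positive (50%, beside 51.5% of all genes). Groups did not overlap for *Bbs1*, the core BBSome subunit that was higher in RC/RC:*Casp1*KO (2% of members beside 7.45% of all genes), and for *Arl6* and *B9d2*, which were lower (4% beside 6.31%). *Arl6* had the smallest adjusted p of all members, 0.0990, with a log2 fold change of -0.31 (SE 0.08). The lowest fold changes were those of *Arl3* (-0.43, SE 0.14, adjusted p = 0.139) and *B9d2* (-0.35, SE 0.12, adjusted p = 0.151). The highest were those of *Bbs12* (0.48, SE 0.20, adjusted p = 0.209) and *Dync2h1* (0.42, SE 0.22, adjusted p = 0.288). Scaling by library size alone moved members and all genes alike, to medians of 0.13 and 0.14, with 40 of 50 members positive beside 69.5% of all genes.

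Direction within the cilium genes followed gene length. Of the 11 members shorter than 2000 bases, 1 had a positive log2 fold change in RC/RC:*Casp1*KO against RC/RC, beside 29.7% of all genes of that length. Their median was -0.28. None of them was called in either direction, beside 4.79% of all genes of that length called higher and 7.44% lower. Of the 21 members of 2000 to 4000 bases, 15 were positive (median 0.11), beside 45.2% of all genes of that length. Of these members, 3 were called higher and none lower, beside 5.96% and 4.47% of all genes of that length. Of the 18 members of 4000 bases or longer, 16 were positive (median 0.31), beside 66.2% of all genes of that length. Of these members, 5 were called higher and none lower, beside 11% and 1.69% of all genes of that length. All genes tested showed the same order with medians of -0.22, -0.04 and 0.14, so that the long members lay above and the short members slightly below other genes of their length. Across the 50 members, Spearman's rho between length and fold change was 0.59, and across all genes tested it was 0.30. These values describe genes of the same 8 libraries, which are not independent. Against WT, the RC/RC medians ran the other way, 0.06, -0.18 and -0.24 for members and 0.10, -0.03 and -0.11 for all genes. The length classes were chosen after seeing the data.

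When each library's trend on gene length was removed, 6 of the 8 calls in RC/RC:*Casp1*KO against RC/RC held, among them *Tctn1*, *Mks1*, *Ift172*, *Inpp5e* and *Nek8*. *Cep164* and *Dync2h1*, the latter with the longest transcript of the 50, were no longer called, and the median of the members was 0.06 beside -0.03 for all genes. In the same fits 6.09% of all genes were called higher and 4.01% lower. In RC/RC against WT, this correction raised the number of members called lower to 3 (*Inpp5e*, *Ift172* and *Cep164*), beside 6.3% of all genes called lower and 8.86% higher, moved the median of the members to -0.23 and that of all genes to -0.12, and left 6 of 50 members and 37.2% of all genes positive. The source of the trend was not tested.

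**Figure D4:**
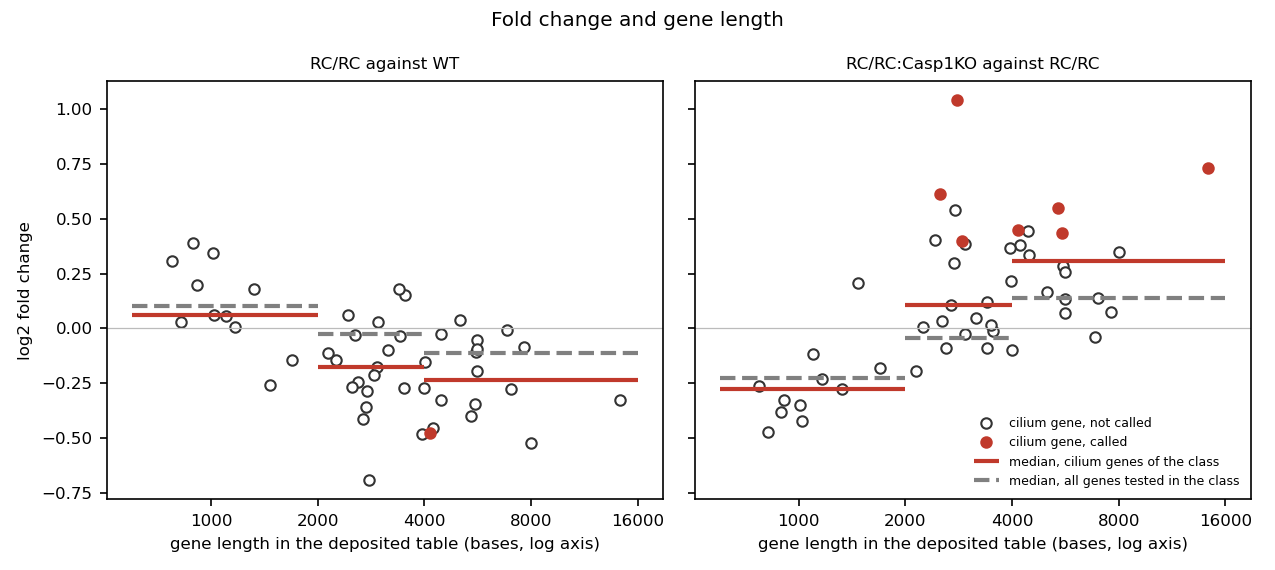
The log2 fold change (y axis) of 48 of the 50 cilium genes against gene length in bases (x axis, log scale) in 2 comparisons that share the RC/RC mice. Filled points were called, solid lines are the medians of all 50 cilium genes in 3 length classes and dashed lines those of all genes tested; in RC/RC:Casp1KO against RC/RC the solid lines rise from -0.28 to 0.31, and the dashed lines from -0.22 to 0.14.

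Other genes of the cilium, which the symbol rule did not take, were read from the same fits. In RC/RC:*Casp1*KO against RC/RC, 8 of 72 tested were higher and none lower, beside 7.23% and 4.41% of all genes. None of these 8 was called without RC139 and RC140 together, in a fit that called 0.313% of all genes higher and 0.0246% lower. Their log2 fold changes in that fit ran from 0.37 for *Rfx7* to 1.65 for *Rpgrip1*. None of the 15 IFT, BBSome and motor subunits that go by other symbols, such as *Wdr19*, *Wdr35*, *Cluap1* and *Ttc8*, was called, with a median of 0.15. Of 26 further transition zone, appendage and cargo genes, 3 were higher: *Rpgrip1*, which encodes a transition zone protein related to that of *Rpgrip1l* (1.94, SE 0.33, adjusted p = 0.0107), *Cspp1*, a ciliary microtubule gene (0.67, SE 0.13, adjusted p = 0.0155), and *Cc2d2a*, a partner of the tectonics (0.66, SE 0.19, adjusted p = 0.0482). *Rpgrip1* had 0.08 to 0.16 FPKM in RC/RC and 0.27 to 0.63 FPKM in RC/RC:*Casp1*KO. Its call held with each mouse left out in turn (adjusted p up to 0.0424), that of *Cspp1* was lost without RC140 or Del3_105 (adjusted p up to 0.0539), and that of *Cc2d2a* held in 1 of 8 such fits, that without RC105 (0.129 at the highest), and was lost with the length trend removed. None of the 3 was called without RC139 and RC140 together. Among 10 genes that cap or dismantle the cilium, *Ccp110* and *Cep97*, whose products cap the mother centriole together, were higher (0.84, SE 0.16, adjusted p = 0.0171, and 0.64, SE 0.15, adjusted p = 0.0310). The call of *Ccp110* was lost without RC140 or Del3_105 (adjusted p up to 0.0578), and that of *Cep97* held without RC105 or RC143 alone (0.0856 at the highest) and was lost with the length trend removed.

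Of 8 tested transcription factors of the RFX family and others linked to cilium genes, none was called lower by edgeR's test. In RC/RC, 2 were called higher than in WT, beside 9.76% of all genes, with 3.18% called lower. Mice without *Casp1* had 2 called higher than in RC/RC, beside 7.23% and 4.41%, and 1 was called higher than in WT, beside 1.13% and 0.893%. *Rfx3* and *Rfx7*, members of the RFX family, were higher in RC/RC:*Casp1*KO than in RC/RC (0.55, SE 0.15, adjusted p = 0.0425, and 0.47, SE 0.11, adjusted p = 0.0278). Both calls were lost without RC139, RC140, Del3_60, Del3_105, Del3_42 or Del3_70, and that of *Rfx3* also without RC143 (adjusted p up to 0.116 for *Rfx3* and 0.0855 for *Rfx7*). Neither was called with the length trend removed. *Foxj1*, the master factor of motile cilia, was higher in RC/RC than in WT. It had 0.20, 0.29, 0.12 and 0.14 FPKM in WT, 2.38, 3.71, 2.68 and 1.75 FPKM in RC/RC, and 0.36, 0.55, 0.70 and 2.21 FPKM in RC/RC:*Casp1*KO. The log2 fold change from WT to RC/RC was 3.79 (SE 0.35, adjusted p = 0.000369, same test), it was called with each mouse left out, and it remained 3.45 without RC139 and RC140 (adjusted p = 0.00779). *Glis2*, a zinc finger factor mutated in a form of nephronophthisis, was higher than WT in both cystic groups (0.45, SE 0.11, adjusted p = 0.0278, and 0.49, SE 0.10, adjusted p = 0.0421), though the first call held without B6_3 or RC143 alone and the second without Del3_42 alone (adjusted p up to 0.104 and 0.111 with another mouse left out), and neither held with the length trend removed.

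The motile cilium genes were read beside *Foxj1*. Of 20 listed, 17 were found by symbol, and 9 of these had enough reads to be tested in RC/RC against WT. Called were 1 higher, *Foxj1* itself, and 1 lower, beside 9.76% and 3.18% of all genes. The lower one was *Ccdc114*, a dynein docking gene (-1.35, SE 0.33, adjusted p = 0.0255). That call was lost without B6_4, B6_6, RC139 or RC140 (adjusted p up to 0.0745). *Mcidas* and *Tekt4* had at most 3 counts in every mouse. *Ccdc39*, a ruler of the motile axoneme, was higher in RC/RC:*Casp1*KO than in RC/RC (1.16, SE 0.25, adjusted p = 0.0226), and its call was lost without RC139, RC140 or Del3_105 (adjusted p up to 0.0702). *Plk1*, a mitotic kinase that also promotes cilium disassembly, was higher in RC/RC than in WT (1.74, SE 0.43, adjusted p = 0.0276), though not without B6_2, B6_3, B6_4, RC105, RC139 or RC140 (adjusted p up to 0.0762). It moved with 7 of 7 markers of dividing cells that were called higher in the same comparison, and the part of dividing cells in it was not tested.

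In RC/RC against WT, 4 of 71 tested cilium genes outside the rule were higher and 2 lower, beside 9.76% and 3.18% of all genes. Without RC139 and RC140 together, 1 of these 6 calls held, that of *Foxj1*. That fit called 2.71% of all genes higher and 0.391% lower. A further pair of the 6 calls concerned cargo and appendage genes, 1 higher and 1 lower of 26 tested with the transition zone genes. *Unc119*, which carries lipidated proteins to the cilium, was higher (0.87, SE 0.23, adjusted p = 0.0395), and *Sclt1*, a distal appendage gene, was lower (-0.55, SE 0.15, adjusted p = 0.0436). *Unc119* was not called without B6_2, B6_3, B6_6, RC139 or RC140 (adjusted p up to 0.112) or with the length trend removed, and *Sclt1*, of the 8 fits with 1 mouse left out, was called in that without RC143 (adjusted p up to 0.124). Without RC139 and RC140 together, *Unc119* had 0.48 and *Sclt1* -0.38 (adjusted p = 0.369 and 0.271, edgeR's test).

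The polycystins and fibrocystin, the products of the main polycystic kidney disease genes and residents of the ciliary membrane, were read in the same fits. *Pkd1*, which carries the RC allele, had 2.84, 2.98, 4.77 and 4.37 FPKM in WT, 4.15, 4.76, 3.28 and 3.38 FPKM in RC/RC, and 5.11, 4.98, 3.97 and 6.16 FPKM in RC/RC:*Casp1*KO. The groups overlapped, and no comparison called it (log2 fold changes of 0.06, 0.37 and 0.44). *Pkd2* had 52.1, 57.8, 51.4 and 55.8 FPKM in WT, 73.3, 50.8, 55.9 and 69.6 FPKM in RC/RC, and 75.2, 76.8, 83.6 and 76.8 FPKM in RC/RC:*Casp1*KO.

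*Pkd2* was therefore above every mouse of both other groups in the kidneys without *Casp1*, and it was called higher than WT (0.53, SE 0.09, adjusted p = 0.0250) but not than RC/RC (0.31, SE 0.15, adjusted p = 0.171). *Pkhd1*, which encodes fibrocystin, had 11.1, 10.7, 12.7 and 13.5 FPKM in WT, 20.3, 8.93, 8.78 and 12.9 FPKM in RC/RC, and 26.2, 23.1, 16.6 and 20.5 FPKM in RC/RC:*Casp1*KO. Its log2 fold change from WT to RC/RC:*Casp1*KO was 0.85 (SE 0.15, adjusted p = 0.0279, same test). Both calls held in 1 of the 8 fits with 1 mouse left out (without Del3_42), with adjusted p-values up to 0.0768 for *Pkd2* and 0.0902 for *Pkhd1* in the others, and neither gene was called once the length trend was removed.

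Markers of cell types moved in the same comparisons, and their part in the results was not tested. In RC/RC against WT, 7 of 7 fibroblast genes, 4 of 5 macrophage genes, 5 of 6 T cell genes, 5 of 5 B and plasma cell genes and 7 of 7 genes of dividing cells were higher, as were 5 of 7 markers of injured tubule, among them *Lcn2* (5.54, SE 0.37) and *Havcr1* (4.90, SE 0.47). Of all genes tested, 9.76% were called higher. None of these T cell or B and plasma cell calls held when RC139 and RC140 were both left out (adjusted p from 0.0679 to 0.339, edgeR's test). That fit still called *Col1a1*, *Col1a2*, *Col3a1*, *Dcn*, *Cd68*, *C1qa*, *C1qb*, *Itgam*, *Mki67*, *Top2a*, *Ccnb2*, *Havcr1*, *Lcn2* and *Vcam1* higher. The other higher calls were lost there, and 2.71% of all genes were called higher. Lower were 2 of 3 distal convoluted tubule genes, 2 of 8 proximal tubule genes and 1 of 4 podocyte genes; *Slc12a3*, the cotransporter of the distal convoluted tubule, was at -2.03 (SE 0.33) and was called with each mouse left out. In RC/RC:*Casp1*KO against RC/RC, 5 of 7 fibroblast, 2 of 5 macrophage, 2 of 7 injured tubule and 1 of 5 B and plasma cell genes were lower, and 2 of 8 proximal tubule genes and 1 of 3 distal convoluted tubule genes were higher. Of these 13 calls, those of *Lrp2*, *Cubn* and *Dcn* held with each mouse left out in turn, and the others were lost in at least 1 such fit. Without RC139 and RC140 together, *Lrp2* and *Cubn* were not called by edgeR's test (1.16 and 1.01, adjusted p = 0.109 and 0.110). *Dcn* and *Acta2* were still called there (-1.09 and -0.99, adjusted p = 0.0483 and 0.0352), and the other marker calls of this comparison were not. That of *Acta2* was lost without Del3_105 alone (adjusted p = 0.0537). The summed level of the fibroblast list, of which *Dcn* had the highest mean over all 12 mice and in both cystic groups (*Acta2* in WT), was 74.1 to 94.0 FPKM in WT, 232 to 541 FPKM in RC/RC and 92.8 to 170 FPKM in RC/RC:*Casp1*KO. That of the macrophage list, led by *C1qa*, was 51.4 to 72.6, 140 to 186 and 61.3 to 153 FPKM. The distal convoluted tubule list, led by *Slc12a3*, summed to 258 to 377, 55.4 to 125 and 119 to 287 FPKM. The proximal tubule list, led by *Slc34a1*, summed to 3119 to 4511, 1691 to 3629 and 3235 to 4199 FPKM, and *Lrp2* and *Cubn*, its endocytic receptors with long transcripts, were lower in RC/RC than in RC/RC:*Casp1*KO.

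RC139 and RC140 were the lowest RC/RC pair for 5 of the 8 proximal tubule markers, *Lrp2*, *Cubn*, *Slc5a12*, *Slc5a2* and *Aqp1*. *Lrp2* had 98.3, 52.2, 47.2 and 84.4 FPKM in RC105, RC139, RC140 and RC143, and 255, 221, 176 and 161 FPKM in RC/RC:*Casp1*KO. *Cubn* had 30.7, 16.5, 16.3 and 26.2 FPKM in the same RC/RC mice. The same pair was the lowest for *Tctn1* and *Dync2h1*. The other 3 markers had another order: *Slc34a1* had 855, 665, 1282 and 1835 FPKM in these mice and the anion transporter gene *Slc22a6* 52.8, 45.8, 154 and 220 FPKM, with RC105 and RC139 the lowest. No list of cell type markers had a gene at 3 counts or fewer in every mouse.

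A short stretch of promoter was looked at because 8 members and 2 RFX factors were called higher in the same comparison. These 8 were picked by that call, and 18 of the 50 members had a negative fold change there. Neither RFX call held with the length trend removed. RFX factors bind the X-box, an imperfect inverted repeat found before many cilium genes. RefSeq promoters of the GRCm38.p6 build, from 250 bases before to 50 bases after each start site, were at hand for 42 of the 50 members and 27025 genes in all. The X-box, searched on both strands, was found in 6 of the 42 members (14.3%) and in 1.75% of all genes. The shorter motif GTTGCC, which lies inside most of these matches, were found on either strand in 20 of the 42 (47.6%) and in 14.1% of all genes. Of the 8 called members, 7 had a promoter, 5 of which held GTTGCC (*Cep164*, *Dync2h1*, *Ift172*, *Mks1* and *Tctn1*) and 1 the X-box. Matches in 4 members are shown 5′ to 3′ on the strand of the gene, with the X-box in capitals, to show how far the copies differ. *Tctn1* is the member with the largest change, and the others had a match before their start sites; the match in *Tctn1* lies within the first 50 transcribed bases, and *Ift57* has another match that begins near the end of the stretch, left in lower case.
Tctn1, chr5:122264411-122264424, minus strand: GTTGCCCGGGCAAC
Ift57, chr16:49699187-49699240, plus strand: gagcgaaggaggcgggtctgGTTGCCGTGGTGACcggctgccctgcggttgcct
Tctn2, chr5:124598667-124598720, plus strand: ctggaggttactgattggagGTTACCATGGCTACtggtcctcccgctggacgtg
Tctn3, chr19:40612339-40612391, minus strand: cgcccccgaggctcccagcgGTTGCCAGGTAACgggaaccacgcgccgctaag

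A match is a description and not a site at which binding was measured. Members with the same motif did not behave alike: in RC/RC:*Casp1*KO against RC/RC, *Tctn1* had a log2 fold change of 1.04, *Tctn3* 0.30 (adjusted p = 0.196), *Tctn2* -0.09 (adjusted p = 0.615) and *Ift57* -0.09 (adjusted p = 0.643).

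Counts of some members may include reads of a neighbour. The listed span of 19 of the 50 members overlaps another gene, and whether strand was used in counting is not given in the sources used here. Among the called genes, *Inpp5e* overlaps *Pmpca* by 874 bases and *Tctn1* overlaps *Hvcn1* by 1011 bases. *Cep164*, *Dync2h1*, *Ift172*, *Mks1* and *Nek8* have no overlapping gene in the table.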

How the data were processed

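Reads per gene were counted by the authors, who deposited 1 table for the whole series. Its counts are raw whole numbers, and the submitters' processing notes name CASAVA 1.8, STAR and mm10. The counting tool and strand setting are not given in the sources used here. The deposited gene lengths (other values, in bases) were used for FPKM. The authors' own FPKM, DESeq2 fold changes and p-values are also in the table and were not used. Columns of unknown group numbered 0. Member positions in the table overlapped RefSeq GRCm38.p6 for 50 of 50.

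Each comparison was a fit of 8 mice with edgeR 4.0.16 (R 4.3.3) on the deposited counts, with TMM factors, filterByExpr, the quasi-likelihood test and Benjamini-Hochberg adjustment over all genes tested. Genes with an adjusted p under 0.05 were called. SE is the log2 fold change over the square root of F. FPKM used TMM factors of all 12 libraries. Within groups, all 18 pairs of libraries differed by more than sampling noise, and the mice were treated as replicates; that these are separate animals comes from the labels. Overlap of groups was read from CPM of each fit. The fits were tested on simulated data with 200 changed genes of 15428. There edgeR's test recovered 52% of the 2-fold and 85% of the 4-fold changes, with 7 false calls. The simulated counts held no gene length trend, so they do not show how the fits behave under it.

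The alternatives were DESeq2 1.42.0, RLE factors, library size alone, no filter beyond 1 count, at least 10 counts in every mouse, all 12 mice in 1 fit, removal of each library's gene length trend (loess, span 0.5), limma 3.58.1 on log2(FPKM + 1), and each mouse left out; leaving out RC139 and RC140 together was added after seeing the data. The members and lists were chosen with earlier results of these data known. Values in each mouse are given for members called in any comparison; also named are the 2 highest and 2 lowest fold changes per comparison, the 3 highest and 3 lowest levels, *Casp1*, *Pkd1*, *Pkd2*, *Pkhd1* and up to 5 called genes per companion list and comparison. Other names were chosen after their values were seen. Of the 50 members, 2 are counted but not reported here by name, and the plots leave them out.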

Additional observations from a re-analysis of the deposited data

Results flagged for a closer look

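In groups of 4 mice, 1 mouse stood far from the other 3 in 5 of the 108 groups of values checked by Dixon's criterion. Chance gives about 1 in 20 groups, so this number is near what chance gives. *Inpp5e* was at 9.20 FPKM in the WT mouse B6_6 and at 8.25 to 8.35 FPKM in the other WT mice. *Casp1* was at 1.37 FPKM in the WT mouse B6_2 and at 0.859 to 0.944 FPKM in the others. *Sclt1* was at 3.82 FPKM in the RC/RC:*Casp1*KO mouse Del3_60 and at 4.69 to 4.81 FPKM in the others. *Ccdc39* was at 1.17 FPKM in the RC/RC mouse RC105 and at 0.666 to 0.734 FPKM in the others. *Plk1* was at 0.706 FPKM in the WT mouse B6_6 and at 0.216 to 0.274 FPKM in the others.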

How the results depend on the processing

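Of the 50 members, 1 was called in RC/RC against WT, 8 in RC/RC:*Casp1*KO set against RC/RC, and 0 in RC/RC:*Casp1*KO set against WT. In RC/RC against WT the count was 0 with library size alone or limma, beside 1.73% and 1.8% of all genes called lower, and 3, all lower, with all 12 mice in 1 fit or the length trend removed, beside 5.42% and 6.30%; the median log2 fold change moved from -0.13 to -0.038 with library size alone, -0.036 with limma and to -0.23 without the length trend, while that of all genes moved from -0.02 to 0.075, 0.055 and -0.12. In RC/RC:*Casp1*KO against RC/RC the count was 2 with library size alone or limma and 5 with no filter beyond 1 count, beside 5.28%, 5.42% and 4.13% of all genes called higher. Against WT, DESeq2 called 1 member in RC/RC:*Casp1*KO, and the median moved from -0.01 to 0.13 with library size alone, 0.10 with limma and -0.11 without the length trend, as did that of all genes, from 0.01 to 0.14, 0.10 and -0.093. With each mouse left out, the counts ran from 0 to 4, 0 to 12 and 0 to 0 (the highest, 4 lower and then 10 higher and 2 lower, without RC105, beside 3.81% of all genes called lower and then 9.50% higher and 8.30% lower; the 0 of the second without RC140 or Del3_105, beside 2.36% and 2.43% higher), and the medians from -0.23 to -0.12, 0.07 to 0.17 and -0.03 to 0.01. Leaving out RC139 and RC140 together, chosen after seeing the data, gave counts of 0 and 0 and a median of 0.011 in RC/RC:*Casp1*KO against RC/RC. Signs reversed for *Inpp5e* in RC/RC:*Casp1*KO against WT (-0.01), which was 0.12 with library size alone, 0.0037 with at least 10 counts in every mouse, 0.11 with limma, 0.025 without B6_6 and 0.014 without Del3_42, within a range of -0.052 to 0.025 over the fits with 1 mouse left out. *Cep164* in that comparison (0.10) became -0.039 without the length trend. The cause of these changes was not tested. No paired analysis was possible because the count columns carry no replicate number. The count columns do not give the sex either, sex was not read from expression, and no fit with sex as a term was made.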
